A study of Homo sapiens with 9 samples.

Results

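The genes of the RNA polymerase I, II and III enzymes were followed in human cells cultured without zinc. They were taken from the deposited expression table as the protein-coding genes whose symbol starts with POLR1, POLR2 or POLR3 and a letter, together with TWISTNB, CD3EAP, ZNRD1, CRCP and RRN3. This gave 36 of the 57766 genes in the table, and all 36 were among the 15774 genes tested. By enzyme, 7 belong to polymerase I (RRN3, an initiation factor, is counted with them), 2 to polymerases I and III, 5 to all enzymes, 11 to polymerase II and 11 to polymerase III.

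The cells were HEK293 Freestyle, a suspension line derived from human embryonic kidney cells. They were kept in Freestyle medium, rinsed in PBS, and cultured for 36 h in zinc-depleted medium (depleted), in repleted medium (repleted) or in untreated Freestyle medium (full), with 3 libraries per medium described as a biological triplicate. Cells of all media came through the same preculture and PBS rinses. The treatment protocol also names a wash with EDTA, a metal chelator, without making plain to which medium or step it applied, and the labels do not give how zinc was removed or how much was added back. As all libraries came from a single cell line, the p-values below measure the spread between its cultures.

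RNA polymerase I makes the large ribosomal RNA precursor, RNA polymerase II makes messenger RNA, and RNA polymerase III makes transfer RNA, 5S ribosomal RNA and other short RNAs. Each enzyme has a large pair of subunits that form the active centre, an assembly platform, a stalk that binds the emerging RNA, and a set of small subunits, some of which are shared between enzymes. Polymerases I and III carry further subunits, built into the enzyme, that do work done by separate initiation factors in the polymerase II system. In yeast, structures of these enzymes hold zinc ions bound by several subunits, among them the largest ones and the small zinc ribbon proteins.

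Values are RPKM, reads per length of gene and per total of the library, given as mean ± SD over the 3 libraries of a medium. Each change is a difference in log2 of RPKM plus 1, so that low genes look less changed than they are, and was called at a limma adjusted p under 0.05. Read depth, estimated from the spacing of the low values, was 17000000 to 23600000 reads per library. RPKM are shares of each library, and in a bulk culture fewer cells of a kind and less RNA per cell cannot be told apart. Of 10 HEK293 marker genes 9 averaged 1 RPKM or more in depleted cells, where PAX2 was at 0.6 ± 0.205 RPKM, and all 10 did so in repleted and in full cells. Their summed level was 856.5 to 877.4 RPKM in depleted, 822.5 to 844.2 in repleted and 837.7 to 854.5 in full libraries, and VIM, called higher in depleted cells, made up most of it; of the 10 genes 4 were called lower against full cells (PAX2, LHX1, KRT8 and KRT18). Of 11 marker genes of blood, endothelial, liver, fibroblast and muscle cells found in the table, COL1A1 alone reached 1 RPKM and HBB was listed at 0 in every library. Their sum was 9.71 to 12.5 RPKM in depleted, 18.6 to 20.9 in repleted and 18.3 to 22.2 in full libraries, and its part in the results was not tested. The metallothionein MT2A, a zinc-responsive gene, was at 6.46 ± 0.687 RPKM in depleted, 93.5 ± 3.34 in repleted and 190.7 ± 8.9 in full cells.

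In depleted against full cells, 14 of the 36 polymerase genes fell and 11 rose, and the other 11 were not called. The called share of all genes tested was 60.9%, with 31.2% lower and 29.8% higher, against 69.4% of the polymerase genes. Among protein-coding genes alone it was 66.4%, so the number of polymerase genes called was near the background. Their median log2 change was -0.07, against 0.00 over all genes tested, and their median absolute log2 change was 0.26, against 0.36. Of the 36 genes, 8 were called and lower by at least 0.5 on the log2 scale and 2 were called and higher by that much. Over all genes tested 19.2% and 13.8% were. The number of large falls was thus near the background, where large falls also outnumbered large rises. The 8 were POLR3G, CRCP, POLR3B, POLR3F, ZNRD1, POLR3E, POLR2L and CD3EAP, of which 5 encode polymerase III subunits; the 2 were POLR2H and POLR2J3.

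**Figure D1:**
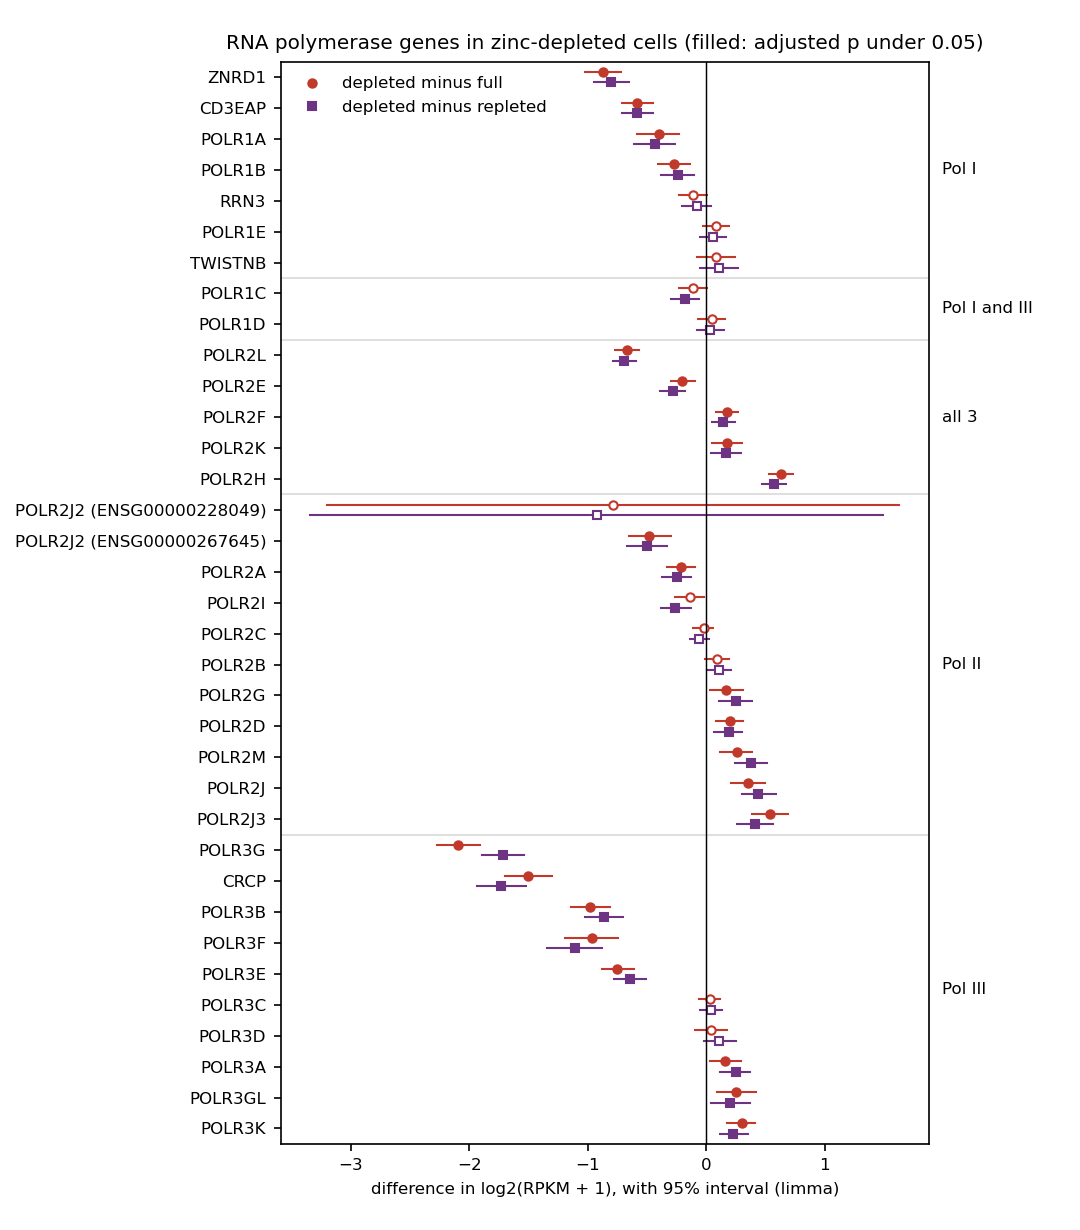
Log2 change of each polymerase gene reported by name in depleted against full cells and in depleted against repleted cells on the horizontal axis, with 95% intervals and filled points for called genes, and the genes grouped by enzyme down the page. The lowest points are POLR3G at -2.09 and CRCP at -1.50 against full cells, and the highest is POLR2H at 0.63.

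By enzyme, polymerase I had 4 lower genes and 0 higher of 7, or 57.1% called, with a median log2 change of -0.27. Polymerase III had 6 lower and 3 higher of 11, or 81.8%, with a median of -0.35. Polymerase II had 2 lower and 5 higher of 11, or 63.6%, with a median of 0.09. Over all genes tested 60.9% were called, and 66.4% of the protein-coding ones. Of the 5 subunits shared by all enzymes, 2 fell and 3 rose, with a median of 0.18. Neither of the 2 subunits of polymerases I and III was called, and whether the enzymes differ from each other was not tested. In 29 of the 36 genes the depleted and full libraries did not overlap, 17 with the depleted libraries lower and 12 with them higher; over all genes tested 67.6% did not overlap.

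The depleted libraries were also set against the repleted ones. How much zinc was added back is not given, and MT2A averaged 93.5 RPKM in repleted against 190.7 RPKM in full cells. Whether the comparison of depleted with repleted cells separates the loss of zinc from other effects of the depletion was not tested. Here 16 polymerase genes fell, 11 rose and 9 were not called, where 60.7% of all genes tested were called, 31.2% lower and 29.5% higher. This comparison uses the same depleted libraries as the first, so its values stand beside the others as a second reference and not as a repeat. Against repleted cells 17 genes had all depleted libraries lower and 13 had them all higher, where 65.2% of all genes tested did not overlap. In repleted against full cells limma called 0 of the 36 genes, where 0.0317% of all genes were called, and 2 of the 36 had an unadjusted p under 0.05, where 7.76% of all genes had. The 2 were POLR3G, lower in repleted cells, and CRCP, higher in them. The libraries of these media did not overlap for 5 genes, POLR3G, ZNRD1 and POLR2M with the repleted ones lower and CRCP and POLR2I with them higher, where 12.4% of all genes did not overlap.

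The promoters of some of these genes are shown because they belong to the genes that moved most. RefSeq promoter entries of build GRCh38.p14 were matched to 25 of the 36 genes, ZNRD1 under its later symbol POLR1H. Below are the 250 bases before the first listed start of the 6 called genes with the largest changes that had an entry, POLR3B, POLR3F, POLR3E, ZNRD1 and POLR2L, which were lower in depleted cells, and POLR2H, which was higher. Each is written 5′ to 3′ in the direction of transcription. Capitals mark the GC box, GGGCGG, the core of the metal response element, TGCACNC or TGCGCNC, to which the zinc-sensing factor MTF1 binds, and the B box core of tRNA genes, GTTCGANNC, each on either strand. Capitals do not mark the other motifs counted below, of which these windows hold none.
POLR3B, chr12:106357498-106357747, plus strand: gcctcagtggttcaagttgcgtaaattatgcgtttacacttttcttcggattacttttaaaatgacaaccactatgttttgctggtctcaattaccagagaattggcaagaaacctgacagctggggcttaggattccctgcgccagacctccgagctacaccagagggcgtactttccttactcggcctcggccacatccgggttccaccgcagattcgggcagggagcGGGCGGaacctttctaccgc
POLR3F, chr20:18467140-18467389, plus strand: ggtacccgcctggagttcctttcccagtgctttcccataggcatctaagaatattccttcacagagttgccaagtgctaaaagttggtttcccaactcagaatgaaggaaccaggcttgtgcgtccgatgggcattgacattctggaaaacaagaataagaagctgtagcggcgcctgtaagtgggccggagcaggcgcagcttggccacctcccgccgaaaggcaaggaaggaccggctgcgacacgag
POLR3E, chr16:22297159-22297408, plus strand: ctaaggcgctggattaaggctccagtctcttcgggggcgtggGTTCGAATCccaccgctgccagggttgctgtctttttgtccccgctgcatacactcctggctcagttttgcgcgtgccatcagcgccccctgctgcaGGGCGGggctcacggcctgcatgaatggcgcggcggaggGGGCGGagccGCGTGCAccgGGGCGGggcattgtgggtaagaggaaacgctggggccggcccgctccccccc
ZNRD1, chr6:30061015-30061264, plus strand: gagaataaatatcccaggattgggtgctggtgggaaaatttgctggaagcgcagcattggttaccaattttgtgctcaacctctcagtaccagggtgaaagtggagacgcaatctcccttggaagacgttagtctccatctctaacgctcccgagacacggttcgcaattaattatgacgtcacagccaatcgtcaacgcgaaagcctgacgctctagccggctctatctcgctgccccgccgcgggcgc
POLR2L, chr11:842530-842779, minus strand: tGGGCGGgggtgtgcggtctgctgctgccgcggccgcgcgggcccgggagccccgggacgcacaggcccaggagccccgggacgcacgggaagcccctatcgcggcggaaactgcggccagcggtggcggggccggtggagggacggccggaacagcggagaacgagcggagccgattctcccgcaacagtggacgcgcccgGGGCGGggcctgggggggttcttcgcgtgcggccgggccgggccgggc
POLR2H, chr3:184361460-184361709, plus strand: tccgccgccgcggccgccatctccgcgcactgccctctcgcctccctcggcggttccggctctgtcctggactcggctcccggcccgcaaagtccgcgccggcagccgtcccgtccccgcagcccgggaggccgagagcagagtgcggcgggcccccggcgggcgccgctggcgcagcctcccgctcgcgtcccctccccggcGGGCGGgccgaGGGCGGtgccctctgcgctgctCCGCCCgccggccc

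In these sequences POLR3E alone held a metal response element core, with its first base 62 bases before the start, and POLR3F and ZNRD1 held none of the marked motifs. The windows of the second listed starts of POLR3B and POLR2H, which are not shown, also held that core. Its first base was 120 and 59 bases before the start in POLR3B and 204 and 13 bases in POLR2H. Over all matched genes, counting the first listed start of each, the metal response element core was in 7 of 25, or 28%, against 24.8% of all 35116 RefSeq promoter entries, where a gene with several starts has several entries. It was in 3 of the 11 matched genes that fell, 3 of the 7 that rose and 1 of the 7 that were not called. A GC box was in 16 of 25, against 42.6% of all promoters. The ETS core, CCGGAAG, was in 7 of 25, against 8.52%, and the E-box, CACGTG, in 3, against 6.34%. The NRF1 core, GCATGCGC, which can overlap the metal response element core, was in 2, against 2.63%, and the ATF4 site, TGATGCAA, was in 0, against 0.772%. POLR3E also held the B box core with its first base 208 bases before the start, where 0.672% of all promoters held that core; this motif was searched after the sequences had been read. A match of letters is a description of the window and not a bound site.

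Polymerase III showed the widest spread. POLR3G, the form of an initiation subunit enriched in stem and tumour cells, was at 3.81, 3.20 and 3.87 RPKM in the depleted libraries, 14.61, 12.92 and 15.00 in the repleted and 18.53, 18.61 and 18.84 in the full ones. All depleted libraries were far below all others, and all repleted libraries were below all full ones. The mean was 5.15-fold lower in depleted than in full cells, with a log2 change of -2.09 (SE 0.08, limma adjusted p = 4.41e-08), which ranked 93 of 15774 from the lowest. Against repleted cells it was 3.91-fold lower, with a log2 change of -1.71 (limma adjusted p = 1.31e-07). The gap between repleted and full cells was -0.38 on the log2 scale (95% interval -0.55 to -0.20), with an unadjusted limma p of 9.55e-04 and an adjusted p of 0.333. The neighbour MBLAC2 on the opposite strand shares 6.47% of the exon bases of POLR3G in GENCODE release 29 and was itself lower, at 1.42 RPKM in depleted against 6.12 RPKM in full cells.

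POLR3GL, the general form that takes the same place in the enzyme, rose by 0.25 (limma adjusted p = 0.0117), with 30.9 ± 0.915 RPKM in depleted, 26.8 ± 1.91 in repleted and 25.8 ± 2.28 in full cells. Its call against repleted cells, 0.20 with a limma adjusted p of 0.0317, was lost without depleted replicate 2 (0.0881), depleted replicate 3 (0.0791) or repleted replicate 1 (0.109). POLR3G stood at 0.117 ± 0.0142 of the POLR3GL level in depleted, 0.532 ± 0.0655 in repleted and 0.726 ± 0.0649 in full cells. The depleted ratios, 0.101 to 0.127, were well under the lowest ratio in any other library, 0.464.

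POLR3F and POLR3C complete this initiation module, which opens promoter DNA with the help of the factor TFIIIB. POLR3F was at 5.16, 6.91 and 5.57 RPKM in depleted, 13.77, 12.64 and 15.00 in repleted and 12.02, 13.11 and 11.95 in full libraries. The depleted libraries did not overlap the others, and the repleted and full ones did overlap. Its log2 change was -0.96 against full cells (SE 0.10, limma adjusted p = 2.81e-05), a 2.10-fold lower mean, and -1.11 against repleted cells. POLR3C, the subunit it lies beside, was at 26.4 ± 0.425, 25.6 ± 0.206 and 25.9 ± 0.626 RPKM in depleted, repleted and full cells and differed from full cells by 0.03 (95% interval -0.06 to 0.12). The POLR3F to POLR3C ratio was 0.222 ± 0.0313 in depleted, 0.540 ± 0.0484 in repleted and 0.477 ± 0.0159 in full cells.

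The active centre pair of polymerase III also moved apart. POLR3B, the second largest subunit, was at 7.07, 7.54 and 6.91 RPKM in depleted, 12.91, 13.26 and 15.40 in repleted and 15.26, 15.09 and 14.87 in full libraries. Every depleted library was lower than every other, with a log2 change of -0.98 against full cells (SE 0.07, limma adjusted p = 2.67e-06) and -0.86 against repleted cells. POLR3A, the largest subunit, was at 23.3 ± 1.23 RPKM in depleted, 19.5 ± 0.938 in repleted and 20.8 ± 0.755 in full cells, higher by 0.16 against full cells (limma adjusted p = 0.0375) and by 0.25 against repleted cells. The call against full cells was lost without full replicate 1 (adjusted p = 0.0997 in limma), full replicate 2 (0.106), depleted replicate 1 (0.0527) or depleted replicate 3 (0.134). POLR3B stood at 0.309 ± 0.0281 of the POLR3A level in depleted, 0.711 ± 0.0406 in repleted and 0.727 ± 0.0342 in full cells.

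In the stalk of polymerase III, CRCP was at 8.11, 8.91 and 7.33 RPKM in depleted, 29.29, 28.92 and 29.00 in repleted and 21.87, 27.80 and 24.62 in full libraries. The depleted libraries were all lower, and the repleted ones were all above the full ones. The log2 change was -1.50 against full cells (SE 0.09, limma adjusted p = 6.40e-07), a 3.05-fold lower mean, and -1.73 against repleted cells, 3.58-fold lower; repleted against full cells differed by 0.23 (95% interval 0.03 to 0.43, limma unadjusted p = 0.0293, adjusted p = 0.593).

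Of the heterodimer that polymerase III uses in initiation and termination, POLR3E fell and POLR3D was not called. POLR3E was at 21.3 ± 0.940 RPKM in depleted, 34.0 ± 2.49 in repleted and 36.5 ± 1.31 in full cells, a log2 change of -0.75 (SE 0.06, limma adjusted p = 5.14e-06). POLR3D differed by 0.04 (95% interval -0.09 to 0.18). The POLR3E to POLR3D ratio was 0.696 ± 0.0786 in depleted, 1.19 ± 0.0875 in repleted and 1.22 ± 0.0561 in full cells. POLR3K, the RNA cleavage subunit and a zinc ribbon protein in yeast, rose by 0.30 (limma adjusted p = 7.77e-04), with 39.9 ± 0.616 RPKM in depleted, 33.9 ± 2.12 in repleted and 32.3 ± 1.16 in full cells. SNRNP25, which overlaps POLR3K on the opposite strand over 8.1% of its exon bases, was higher by 0.73.

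**Figure D2:**
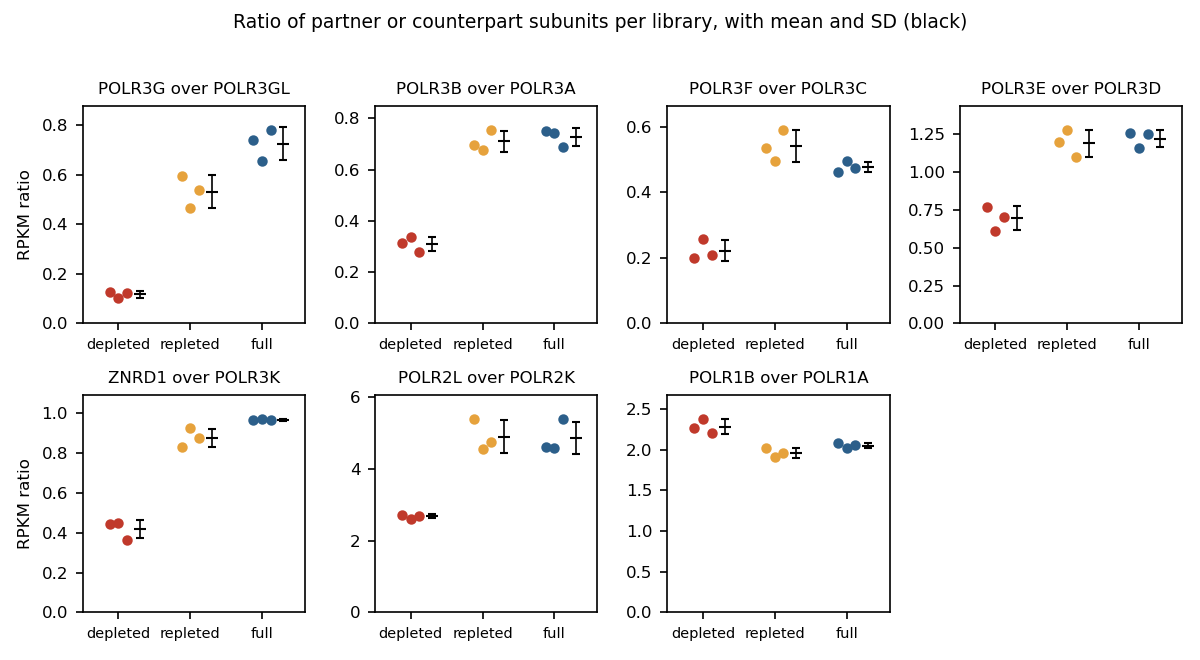
Ratio of the RPKM of partner or counterpart subunits (vertical axes, no unit, from 0), with 1 point per library and the mean with its SD in black beside each medium. In the panel of POLR3G over POLR3GL the depleted libraries lie between 0.101 and 0.127 and all others at 0.464 or more.

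In polymerase I, the subunits that fell were those of the active centre, the RNA cleavage subunit and 1 member of the elongation heterodimer. ZNRD1, the cleavage subunit, was at 17.35, 17.85 and 14.80 RPKM in depleted, 29.94, 29.31 and 29.58 in repleted and 30.29, 31.08 and 32.37 in full libraries. The depleted libraries were far lower, and the repleted ones lay just under the full ones. The log2 change was -0.87 (SE 0.07, limma adjusted p = 3.30e-06), 1.87-fold lower, and -0.80 against repleted cells. The antisense pseudogene ZNRD1ASP shares 24.5% of the exon bases of ZNRD1 and was at 2.91 RPKM in depleted and 1.82 in full cells. ZNRD1 stood at 0.418 ± 0.0460 of the level of its polymerase III counterpart POLR3K in depleted, 0.875 ± 0.0456 in repleted and 0.966 ± 0.00413 in full cells.

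CD3EAP, which pairs with POLR1E in promoter escape and elongation, was at 18.49, 18.43 and 16.72 RPKM in depleted, 26.36, 26.60 and 28.50 in repleted and 26.30, 28.52 and 26.68 in full libraries. The repleted and full libraries overlapped and the depleted ones lay below both, with a log2 change of -0.58 against each (SE 0.06, limma adjusted p = 2.03e-05 against full cells). ERCC1, on the opposite strand, shares 43.5% of the exon bases of CD3EAP and was lower by 0.46; whether the counting used strand is not given in the sources used here, so reads of both genes cannot be told apart where they overlap. The partner POLR1E differed by 0.08 (95% interval -0.03 to 0.19) and was not called.

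POLR1A, the largest subunit, was at 14.25, 12.63 and 15.32 RPKM in depleted, 17.94, 20.15 and 19.89 in repleted and 18.26, 18.29 and 20.18 in full libraries. POLR1B, the second largest, was at 32.14, 30.06 and 33.72 RPKM in depleted, 36.28, 38.43 and 39.03 in repleted and 37.92, 36.87 and 41.64 in full libraries. In both genes every depleted library was below every other. Their log2 changes against full cells were -0.40 for POLR1A (limma adjusted p = 1.56e-03) and -0.27 for POLR1B (limma adjusted p = 3.32e-03), and against repleted cells -0.43 and -0.24. The POLR1B to POLR1A ratio was 2.28 ± 0.0918 in depleted, 1.96 ± 0.0576 in repleted and 2.05 ± 0.0320 in full cells. The stalk gene TWISTNB differed by 0.08 and RRN3, which brings polymerase I to the ribosomal promoter, by -0.11 (95% interval -0.23 to 0.01), neither called. Of the platform shared with polymerase III, POLR1D differed by 0.05 and POLR1C by -0.11 from full cells; POLR1C was called lower against repleted cells, by 0.18 (limma adjusted p = 0.0154), but not without repleted replicate 2 (0.0570). Without full replicate 3 POLR1C was also called against full cells (limma adjusted p = 0.0457).

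**Figure D3:**
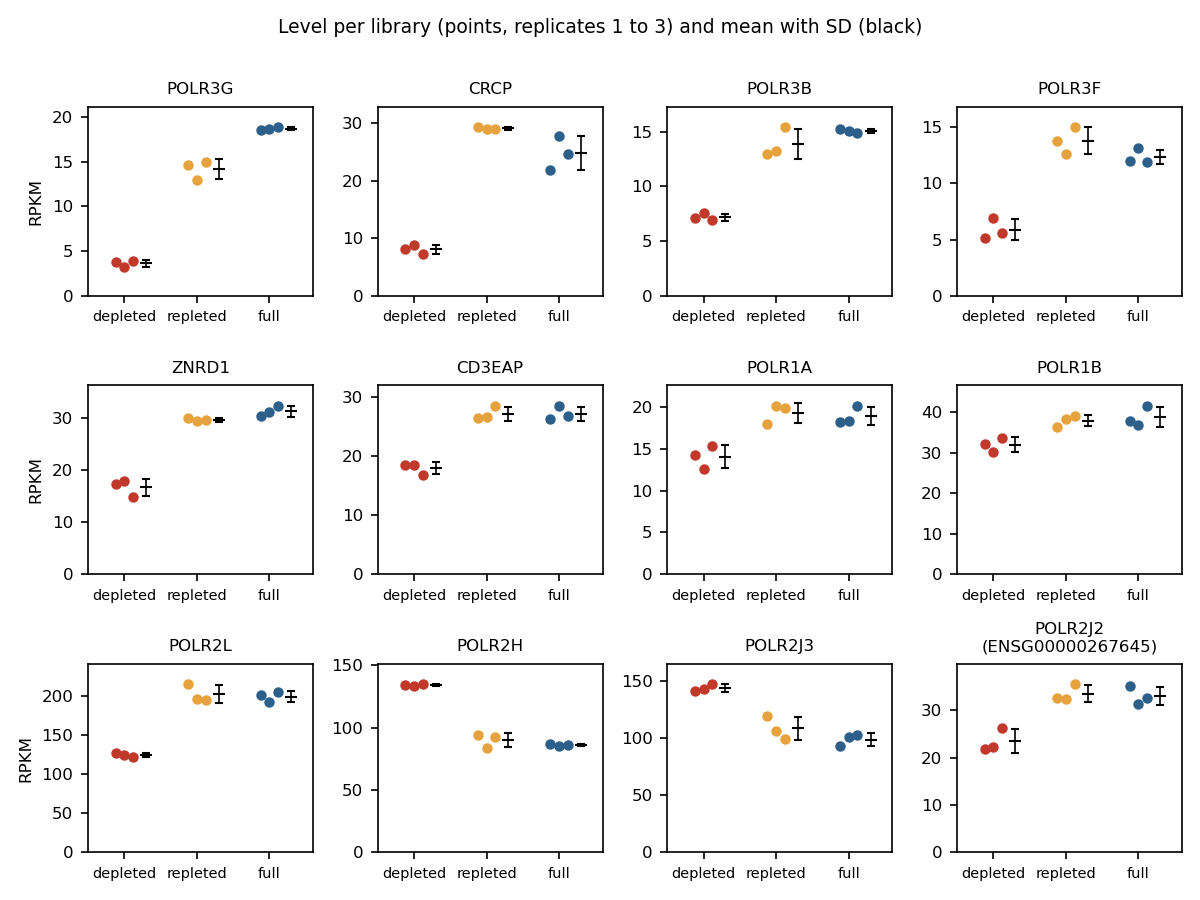
RPKM of the 12 genes with the values of every library in the text (vertical axes from 0), 1 point per library, in depleted, repleted and full medium, with the mean and SD in black. The depleted libraries stand apart from all full libraries in each panel, above them for POLR2H and POLR2J3 and below them in the other panels.

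The small subunits shared by all enzymes, of which POLR2L, POLR2E and POLR2F had the highest RPKM of all 36 genes in full cells, did not move together. POLR2L, a zinc-binding subunit in yeast, was at 127.04, 124.91 and 122.52 RPKM in depleted, 215.57, 196.35 and 195.34 in repleted and 201.59, 191.72 and 204.66 in full libraries. POLR2H, a shared subunit without zinc in yeast, was at 134.08, 133.49 and 135.27 RPKM in depleted, 94.50, 83.97 and 92.44 in repleted and 87.22, 85.63 and 86.40 in full libraries. The depleted libraries were thus all lower for POLR2L and all higher for POLR2H, with log2 changes of -0.67 (SE 0.04, limma adjusted p = 1.05e-06) and 0.63 (SE 0.04, limma adjusted p = 1.53e-06). Against repleted cells the changes were -0.69 for POLR2L and 0.57 for POLR2H. CD151, on the opposite strand of POLR2L over 22.5% of its exon bases, differed by -0.07.

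POLR2K, the other zinc-binding shared subunit of yeast, rose by 0.18 (limma adjusted p = 0.0194), with 46.6 ± 1.25 RPKM in depleted, 41.4 ± 1.66 in repleted and 41.1 ± 2.88 in full cells. This call was lost without full replicate 3 (limma adjusted p = 0.0641) or depleted replicate 2 (0.0646), and the call against repleted cells, 0.17, without any 1 of depleted replicates 1 (0.0612) and 2 (0.0823) and repleted replicates 1 (0.0828) and 3 (0.0592). POLR2L was at 2.68 ± 0.0576 times the POLR2K level in depleted, 4.90 ± 0.450 in repleted and 4.86 ± 0.455 in full cells. POLR2E fell by 0.20 and POLR2F rose by 0.18, with limma adjusted p of 5.03e-03 and 5.26e-03. The rise of POLR2F against repleted cells, 0.14, was lost without depleted replicate 2 (limma adjusted p = 0.0607) or repleted replicate 2 (0.0524).

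Over all genes tested the median absolute log2 change was 0.36 against full and 0.36 against repleted cells. It was 0.27 and 0.24 in polymerase I, 0.35 and 0.33 in polymerase III, and 0.20 and 0.28 in the shared subunits. In polymerase II it was 0.21 and 0.26. POLR2A, the largest subunit, whose C-terminal tail organises messenger RNA processing, fell by 0.21 (limma adjusted p = 7.70e-03), with 51.8 ± 1.47 RPKM in depleted, 61.8 ± 2.47 in repleted and 60.1 ± 4.17 in full cells. POLR2B, its partner in the active centre, differed by 0.09 from full cells and 0.11 from repleted cells and was not called; without repleted replicate 3 it was called against repleted cells (limma adjusted p = 0.0242). In the stalk, POLR2D rose by 0.20 and POLR2G by 0.17 (limma adjusted p = 0.0367). The POLR2G call was lost without full replicate 1 (limma adjusted p = 0.0809), full replicate 3 (0.125), depleted replicate 2 (0.113) or depleted replicate 3 (0.114). POLR2M, or Gdown1, which binds a fraction of the enzyme, rose by 0.26, and POLR2C of the platform differed by -0.02 (95% interval -0.11 to 0.06). POLR2I, a zinc-binding subunit in yeast that acts in start site choice, differed by -0.14 with a limma adjusted p of 0.05004, and was called lower by 0.26 against repleted cells. Without depleted replicate 2 it was called lower against full cells too (limma adjusted p = 0.0114); TBCB, higher by 0.52, overlaps 32.9% of its exon bases on the opposite strand.

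POLR2J, a platform subunit, has near-identical copies, and the split of reads between them is uncertain. POLR2J itself rose by 0.35, with 100.1 ± 6.12 RPKM in depleted, 73.4 ± 6.53 in repleted and 78.0 ± 1.63 in full cells. POLR2J3 was at 141.15, 142.97 and 147.39 RPKM in depleted, 119.68, 106.37 and 99.03 in repleted and 92.62, 100.53 and 102.90 in full libraries, and rose by 0.54 (limma adjusted p = 7.62e-05). The depleted libraries were the highest in both genes. A row named POLR2J2 in the table, ENSG00000267645, was at 21.73, 22.30 and 26.31 RPKM in depleted, 32.57, 32.38 and 35.54 in repleted and 35.10, 31.25 and 32.58 in full libraries, and fell by 0.48 (limma adjusted p = 4.84e-04). Its depleted libraries were below all others. GENCODE release 29 gives this identifier the name AC105052.3. UPK3BL1, on the same strand, shares 72.3% of its exon bases and was at 1.6 RPKM in depleted and 0.477 in full cells. POLR2J3 shares 49.3% of its exon bases with a further POLR2J3 entry on the same strand. Another row named POLR2J2, ENSG00000228049, was listed at 0 in 5 of the 9 libraries and was not called, at -0.79 with an SE of 1.07.

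The 12 genes whose yeast counterparts bind zinc were POLR1A, POLR1B, ZNRD1, POLR2A, POLR2B, POLR2C, POLR2I, POLR2K, POLR2L, POLR3A, POLR3B and POLR3K. Of these 6 fell and 3 rose against full cells, with a median log2 change of -0.17, where 60.9% of all genes were called and their median was 0.00. Of the other 24 genes 8 fell and 8 rose, with a median of 0.03. Against repleted cells the counts were 7 lower and 3 higher of the 12, and 9 lower and 8 higher of the 24. In that comparison 60.7% of all genes tested were called, 31.2% lower and 29.5% higher. Whether the lists differ from each other was not tested. The largest falls, POLR3G and CRCP, were outside the zinc-binding list. Within it, the zinc genes of polymerase I all fell, while in polymerase III POLR3B fell and POLR3A and POLR3K rose.

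Added up, the polymerase genes changed in makeup more than in total. The sum over all 36 was 1863 ± 18.1 RPKM in depleted, 1941 ± 43.1 in repleted and 1915 ± 7.66 in full cells, with every depleted library below every other. Polymerase III genes summed to 248.3 ± 4.71 RPKM in depleted, 303.3 ± 6.78 in repleted and 307.0 ± 4.54 in full cells, and without POLR3G to 244.6 ± 4.92, 289.1 ± 5.90 and 288.3 ± 4.55. Polymerase I genes summed to 141.1 ± 2.71 in depleted, 173.4 ± 5.20 in repleted and 176.2 ± 5.42 in full cells. In both sums, too, every depleted library was below every other. Polymerase II genes summed to 741.7 ± 18.2 RPKM in depleted, 682.3 ± 17.5 in repleted and 674.6 ± 6.89 in full cells, and without POLR2J2 and POLR2J3 to 573.9 ± 16.6, 537.4 ± 8.10 and 539.0 ± 7.22. The share of polymerase II in the total was 39.8% in depleted and 35.2% in repleted and in full cells, that of polymerase III 13.3%, 15.6% and 16.0%, and that of polymerase I 7.58%, 8.94% and 9.20%. Polymerase II genes other than POLR2J2 and POLR2J3 made up 30.8% of the same total in depleted, 27.7% in repleted and 28.1% in full cells. POLR2J, whose split of reads with these copies is uncertain, is still in those values. It was at 100.1 RPKM in depleted, 73.4 in repleted and 78.0 in full cells. Most of the higher polymerase II sum in depleted cells thus lies in POLR2J and POLR2J3. These sums are descriptions with no test.

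**Figure D4:**
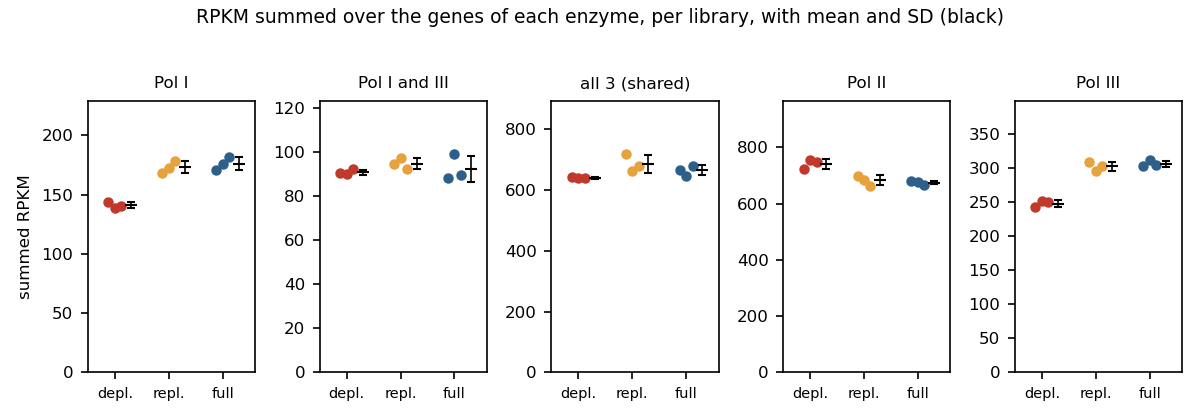
Summed RPKM of the genes of each enzyme (vertical axes from 0), 1 point per library with the mean and SD in black, in depleted (depl.), repleted (repl.) and full medium. Polymerase I and III sums are lowest in depleted libraries, at 141.1 and 248.3 RPKM on average. The polymerase II sum is highest there, at 741.7 RPKM, and includes POLR2J, POLR2J2 and POLR2J3, whose split of reads is uncertain.

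The factors that work with the enzymes were read from lists of their own, by counts beside the 60.9% of all genes called. Of 7 polymerase I factors 3 rose and 1 fell, with a median log2 change of 0.18: UBTF, which binds the ribosomal genes, fell by 0.77, and TBP, the TATA-binding protein used by all enzymes, rose by 0.77, TAF1A by 0.71 and the terminator protein TTF1 by 0.38. Of 17 polymerase III factors 8 fell and 3 rose, with a median of -0.13. The TFIIIC subunits GTF3C3 and GTF3C5 fell, with log2 changes of -1.01 and -0.54. SNAPC3, used at small nuclear RNA promoters, fell by 0.73, and SSB, or La, which binds the ends of new polymerase III transcripts, fell by 0.24.

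Of 18 general factors of polymerase II 7 fell and 6 rose, with a median of -0.03. GTF2H4 and MNAT1, both parts of TFIIH, fell, with log2 changes of -2.27 and -1.89 and means of 4.14 and 9.97 RPKM in depleted cells, against 23.8 and 39.1 RPKM in full cells. GTF2A1, a TFIIA subunit, rose by 0.79. Of 20 elongation and C-terminal domain factors 5 fell and 8 rose, with a median of 0.04. SSRP1, a subunit of the histone chaperone FACT, had the largest fall of any gene in these lists of factors, at 33.2 ± 1.94 RPKM in depleted, 193.5 ± 1.56 in repleted and 190.2 ± 1.43 in full cells, a log2 change of -2.49 (limma adjusted p = 8.50e-10). TCEA2, a TFIIS protein that rescues stalled polymerase, fell by 1.07, while the pausing factor NELFCD and the cyclin CCNT1 rose by 0.44 and 0.60.

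Of 14 genes of polymerase assembly and nuclear import 6 fell and 5 rose, with a median of -0.05. The chaperone genes RPAP3 and RUVBL1 fell, with log2 changes of -0.72 and -0.54, and of the paired GTPases that act in polymerase II import GPN1 fell by 0.57 and GPN3 rose by 0.74. Of 7 mitochondrial transcription genes 2 fell and 2 rose, with a median of 0.17. The elongation factor TEFM and the packaging factor TFAM fell, with log2 changes of -0.64 and -0.24, MTERF rose by 0.47 and MTERFD1 by 0.39, and the mitochondrial polymerase itself, POLRMT, differed by 0.01.

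**Figure D5:**
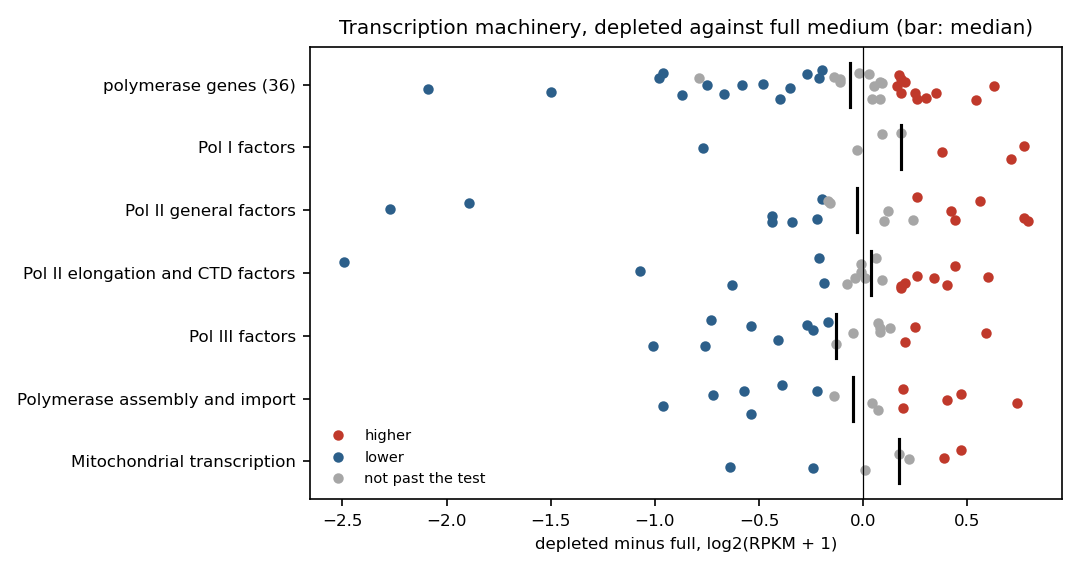
Log2 change in depleted against full cells (horizontal axis) of each tested gene in the lists of polymerase genes and their factors, 1 row of points per list, red for higher, blue for lower and grey for genes not called, with a bar at the median. The changes reach from -2.49 for SSRP1 to 0.79 for GTF2A1, and the lists spread to both sides of 0.

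Of 13 transcripts made by polymerase III that were found in the table, 8 were tested, 3 rose and 0 fell against full cells, with a median log2 change of 0.64. The called share was 37.5%, under the 60.9% of all genes tested. RN7SL2, an RNA of the signal recognition particle, was at 169.73, 105.88 and 23.24 RPKM in depleted, 30.64, 30.06 and 58.87 in repleted and 16.55, 17.35 and 15.69 in full libraries. The depleted libraries lay above the full ones, differed several-fold among themselves and overlapped the repleted ones. RN7SL2 rose by 2.12 (SE 0.59, limma adjusted p = 0.0117), by 1.54 without depleted replicate 1 and by 2.95 without depleted replicate 3. RN7SL1, its near copy, rose by 1.49 and RPPH1, the RNA of RNase P, by 0.67, but without depleted replicate 1 the limma adjusted p was 0.0645 for RN7SL1 and 0.165 for RPPH1. RN7SL1 was also not called without full replicate 1 (0.0630) or full replicate 3 (0.0540), and RPPH1 without any 1 full replicate, depleted replicate 2 or repleted replicate 2 (0.0594 to 0.113). RN7SK, which holds the elongation factor P-TEFb in an inactive complex, was at 76.19, 11.71 and 10.67 RPKM in depleted, 10.16, 10.40 and 20.05 in repleted and 8.94, 6.19 and 7.41 in full libraries. It was not called, except without depleted replicate 2 (limma adjusted p = 0.0446) or depleted replicate 3 (0.0328). Against repleted cells only BCYRN1, a neuronal RNA also made by polymerase III, was called, higher by 0.34. This was 12.5% of the list, where 60.7% of all genes tested were called. Without depleted replicate 3 the list had 4 calls, where 8800 of the 15774 genes tested were called. Without repleted replicate 3 it had 3, where 9087 were. The libraries were enriched for poly(A) tails, which these RNAs largely lack, and several have many near copies in the genome, so these values do not measure the output of the enzyme.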

How the data were processed

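Polyadenylated RNA of HEK293 Freestyle cells was sequenced from single ends on TruSeq libraries, per the labels' protocols, 3 libraries each from depleted, repleted and full medium. The deposited table gives log2 of RPKM plus a pseudocount of 1 per Ensembl gene, as the authors computed it, beside gene lengths. Per the submitters' processing notes, the tools were BWA 0.7.12-r1039, bedtools 2.25.0.3, Bowtie 1.0.1 and RSEM 1.2.6 and the build hg19, also called GRCh37; what each did is not stated. Whether counting used strand, and whether libraries were scaled further, is not given in the sources used here. The table held 57766 genes and 20320 blank rows, which were dropped. It holds no counts, and 57.8% to 64.5% of checked low values were whole reads within 0.1 read at the estimated depths, too few for a count test, so no counting interval or floor was computed.

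The deposited log2 values were fitted with limma 3.58.1 in R 4.3.3 with a variance trend and a mean per medium, the 9 libraries sharing 1 model. The test covered the 15774 genes that reached 1 RPKM in 3 or more libraries, and p-values were adjusted over them by the Benjamini-Hochberg method, with a threshold of 0.05. The model was tested on simulated data. The polymerase genes and the lists of polymerase I, II and III factors, elongation, assembly and mitochondrial factors, polymerase III transcripts and markers were chosen with earlier results of these data known. All library values are given for the 4 called genes of each class (polymerase I with the I and III subunits, polymerase II with the shared subunits, polymerase III) with the largest log2 change and no overlap between depleted and full libraries, and of each other list up to 4 tested genes with the smallest p are named; POLRMT, BCYRN1 and the overlapping neighbours are named besides. Some genes that counts and sums include are not reported by name here. Exon overlaps come from GENCODE release 29, by gene names and shared bases only, and promoters from RefSeq, GRCh38.p14, a later build than that of the deposited values. Alternatives were a pseudocount of 0.1, other filters, only the 6 libraries compared, the replicate number as a block, median centring, quantile normalization, protein-coding genes only, a threshold of 0.01 and each library left out in turn. Python 3.11.15 and matplotlib 3.10.9 made the figures.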

Additional observations from a re-analysis of the deposited data

How the results depend on the processing

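Of the 25 polymerase genes called in depleted against full cells, 21 were called under every alternative, among them all 14 that fell. POLR2G, POLR2K and POLR3A lost their call under some alternatives, with adjusted p up to 0.125, 0.0646 and 0.134 in limma, and POLR3GL at a threshold of 0.01. Of 27 called against repleted cells 23 were called throughout. No called gene changed direction under any of these settings. The number of polymerase genes called was 21 to 27 against full cells, 23 to 27 against repleted cells and 0 in repleted against full cells. Over all genes tested, whose number changed with the filter, it was 7604 to 9757 against full and 7541 to 9574 against repleted cells. Median centring moved the median log2 change of all genes to 0.05 and quantile normalization to 0.04 in depleted against full cells, and the median of the polymerase genes to -0.02 and -0.09. The calls of the named factors held under every alternative; the polymerase III transcripts called against full cells were an exception, of which 1 was called without a filter and 0 at a threshold of 0.01. Median centring also called POLR1E, as well as POLR2B, higher.

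In repleted against full cells the 5 genes called over the whole table became 3 with a pseudocount of 0.1, 2 without a filter, 2 with only the 6 libraries compared and 1 at a threshold of 0.01, and between 1 and 9 with a library left out. With the replicate number as a block, 25 polymerase genes and 9511 of all genes were called in depleted against full cells, 27 and 9472 in depleted against repleted cells, and 0 and 2 in repleted against full cells. The residual correlation was -0.0144 to 0.0726 for libraries with the same number and -0.0609 to 0.0416 for the others. These values cannot show whether libraries with the same number were handled together, so a pairing of the cultures remains unknown. With 3 cultures per medium, small changes of genes at low levels could be missed: the fewest estimated reads behind a value of a called gene were 131, for POLR3G.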
